A study of Mus musculus with 11 samples.

Results

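The receptors through which blood progenitors sense growth factors were examined in 11 mouse lines of granulocyte-monocyte progenitors (GMPs), the precursors of neutrophils and monocytes. The 10 genes, taken by symbol from a fixed list out of 37583 gene IDs in the count tables, were Kit, Flt3, Csf1r, Csf3r, Csf2ra, Csf2rb, Il3ra, Il6ra, Il6st and Il1rl1. All 10 were matched and all 10 passed the filter on low counts, among 11900 genes tested. The cells were of C57BL/6 strain, taken from E15.5 fetal liver, and carried ER-Hoxb8, an estrogen-receptor fusion of Hoxb8 brought in by retrovirus, which holds progenitors in an immature, dividing state while estradiol is present. All clones were grown in the same medium with 0.5 uM beta-estradiol, 10% serum and conditioned medium equivalent to about 50 ng/ml stem cell factor (SCF). There were 6 wild-type (WT) clones, named 1A to 1C and 2D to 2F, and 5 tafazzin (Taz) knockout (KO) clones, named 3H, 3I, 4J, 4K and 4L, each grown from a single cell. Both genotypes carried the ER-Hoxb8 construct, so no group shows these receptors without it. Tafazzin remodels the mitochondrial lipid cardiolipin. Taz itself was at 37.0 to 43.8 counts per M (CPM) in WT and 2.21 to 4.09 CPM in KO clones, so all 11 libraries fitted their genotype labels. The comparison asks how progenitors differ when it is missing. The sources used here do not give the part of Taz that was deleted or what the number in a clone's name stands for. Clones of 1 number may share a parent culture, so a p-value here speaks only for the spread among these 11 clones, which may in part be technical.

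The receptors fall into 3 families. KIT, FLT3 and the CSF1 receptor are receptor tyrosine kinases, which phosphorylate themselves and their targets when SCF, FLT3 ligand or CSF1 binds. CSF3R, the alpha chains CSF2RA, IL3RA and IL6RA, and the shared chains CSF2RB and IL6ST (gp130) are class I cytokine receptors, which have no kinase of their own and signal through Janus kinases and STAT factors. IL1RL1 (ST2), the IL-33 receptor, belongs to the IL-1 receptor family and is known from mast cells and basophils. In normal marrow KIT and FLT3 mark immature cells, CSF3R drives granulocyte production and the CSF1 receptor marks monocytes and macrophages.

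The start regions of 5 members are shown because their RNA levels moved in opposite ways across the clones, as described below. Kit, Flt3 and Il3ra were low in WT 2D and 1A, where Csf2ra and Il6ra were high. Each sequence is the 250 bases before the first transcript start that RefSeq lists (build GRCm38.p6), read 5′ to 3′ on the gene's strand. Capitals mark matches to GAGGAA, a core bound by the myeloid factor PU.1, or AGATAA, a core bound by GATA factors, on either strand. The regions are chr5:75574737-75574986, plus strand (Kit), chr5:147400490-147400739, minus strand (Flt3), chr14:14346245-14346494, plus strand (Il3ra), chr19:61228419-61228668, minus strand (Csf2ra) and chr3:89913197-89913446, minus strand (Il6ra).
Kit: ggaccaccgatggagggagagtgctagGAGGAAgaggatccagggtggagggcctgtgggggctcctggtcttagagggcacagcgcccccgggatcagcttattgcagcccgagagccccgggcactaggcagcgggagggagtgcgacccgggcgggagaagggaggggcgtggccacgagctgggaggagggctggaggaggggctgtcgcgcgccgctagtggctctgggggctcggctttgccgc
Flt3: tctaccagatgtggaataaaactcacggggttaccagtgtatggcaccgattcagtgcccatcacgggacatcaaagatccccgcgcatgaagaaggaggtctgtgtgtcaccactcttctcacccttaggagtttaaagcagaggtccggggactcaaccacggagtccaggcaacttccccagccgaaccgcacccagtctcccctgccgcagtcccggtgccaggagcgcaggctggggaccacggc
Il3ra: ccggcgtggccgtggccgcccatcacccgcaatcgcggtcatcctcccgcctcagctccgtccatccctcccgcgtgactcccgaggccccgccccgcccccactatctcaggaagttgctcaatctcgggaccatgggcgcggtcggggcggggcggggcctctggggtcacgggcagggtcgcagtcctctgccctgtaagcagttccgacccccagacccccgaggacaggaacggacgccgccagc
Csf2ra: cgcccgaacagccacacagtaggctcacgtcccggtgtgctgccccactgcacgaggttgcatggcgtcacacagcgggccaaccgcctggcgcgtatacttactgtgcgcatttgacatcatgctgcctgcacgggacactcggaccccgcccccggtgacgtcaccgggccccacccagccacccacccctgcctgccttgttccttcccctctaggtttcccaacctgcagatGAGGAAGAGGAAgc
Il6ra: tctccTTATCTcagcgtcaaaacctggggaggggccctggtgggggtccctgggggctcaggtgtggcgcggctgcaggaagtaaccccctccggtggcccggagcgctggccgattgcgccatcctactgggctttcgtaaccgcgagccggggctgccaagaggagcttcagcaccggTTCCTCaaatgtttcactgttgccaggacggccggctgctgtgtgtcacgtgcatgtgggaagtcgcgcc

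GAGGAA was found in 4 of the 8 members searched, against 23.1% of 27025 RefSeq promoters of the same length. The 4 were Kit, at -223 from the start, Csf3r at -86, Csf2ra at -14 and -8 (adjoining copies) and Il6ra at -70. AGATAA was found in 2 of 8 (Il6ra at -245 and Il1rl1 at -217), against 10.3% of all promoters. TGTGGT (RUNX), TGATGNAA (ATF4) and TTCNNNGAA (STAT), searched on both strands, were found in 0 of 8, against 14.2%, 3.53% and 7.18%. None of the 5 motifs was found in Flt3, Il3ra or Il6st. These are letter matches in a short window and say nothing about binding. Csf1r and Csf2rb were not searched, so these counts do not cover them. Csf2rb had no entry among the promoters used, and Csf1r was left out by name before the search.

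Between genotypes, 0 of the 10 receptor genes changed at an adjusted p under 0.05 (edgeR's quasi-likelihood test, Benjamini-Hochberg over all genes), where 5.05% of all tested genes did (2.76% higher, 2.29% lower). DESeq2 and limma-voom also called 0 of 10, against 10.6% and 5.03% of genes. At an unadjusted p under 0.05 there was 1, Il3ra, against 20.3% of all genes. For 0 of 10 did the KO clones lie wholly above or below the WT clones, against 5.99% of all genes. Fold changes were positive for 4 members and negative for 6, with a median log2 fold change of -0.15 against -0.01 over all genes. Levels are given below as CPM, gene counts per M counts of the TMM-scaled library size.

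**Figure D1:**
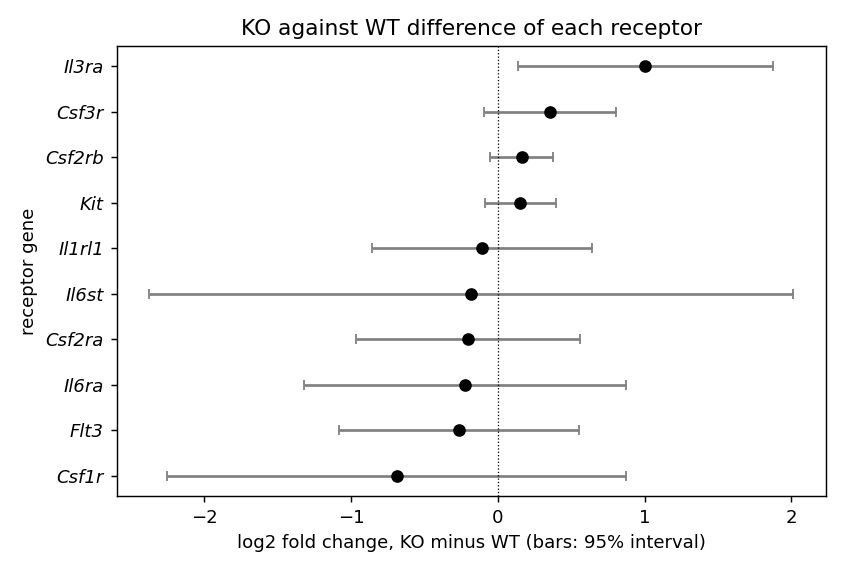
The log2 fold change (KO minus WT) of each receptor gene, in edgeR's fit over all 11 clones, with bars for its 95% interval and a dotted line at no difference. The point for Il3ra is at 1.01 with an interval that leaves out 0 before adjustment, and the intervals of the other 9 genes include 0.

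Of the receptor tyrosine kinases, Kit, the SCF receptor on which these cultures depend, was the most abundant member per length. WT clones ran from 515 CPM (2D) over a median of 703 to 780 (2E), and KO clones stood at 699 (3H), 800 (3I), 644 (4J), 866 (4K) and 722 (4L). The groups overlapped, at 671 ± 97.2 CPM (SD, n = 6) and 746 ± 87.6 (SD, n = 5). KO clones differed by a log2 fold change of 0.15 ± 0.11 (SE, 95% interval -0.09 to 0.40; edgeR adjusted p = 0.481). That interval takes the clones as independent, so it sets no firm limit on a fall of Kit in KO clones. Leaving out 1 clone moved the log2 fold change between 0.087 and 0.20.

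Flt3, a kinase of early progenitors, was 4.42 times as high in its highest as in its lowest clone. WT clones ran from 65.1 CPM (2D) over a median of 197 to 288 (2E), and KO clones stood at 125 (3H), 196 (3I), 140 (4J), 206 (4K) and 73.6 (4L). WT 2D, KO 4L and WT 1A (108) were the low clones, and both genotypes had high and low ones. The means were 178 ± 79.9 and 148 ± 54.4 CPM (SD), giving a log2 difference of -0.27 ± 0.37 (SE, interval -1.09 to 0.55; edgeR adjusted p = 0.745). With a late neutrophil gene score as a covariate, an alternative added after the data were seen, Flt3 passed the threshold (-0.60 ± 0.15, edgeR adjusted p = 0.0410, where 7.46% of genes did).

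Csf1r, the receptor of monocytes and macrophages, was close to the lower limit of detection. It lay between 0.332 and 3.20 CPM in WT clones and at 2.18, 0.509, 0.127, 0.565 and 1.76 CPM in KO clones 3H to 4L, from 3 to 78 reads per library. Its highest clones were WT 2D (3.20) and WT 1A (3.00). The log2 fold change was -0.69 ± 0.71 (SE; interval -2.25 to 0.87; edgeR adjusted p = 0.636). Of its exon bases, 15.1% overlap Hmgxb3 on the opposite strand in the GRCm38 annotation, and counting ignored strand, so reads there are uncertain.

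Among the class I cytokine receptors, Il3ra, the alpha chain that binds interleukin-3, had the highest fold change. WT clones ran from 9.07 CPM (1A) over a median of 25.3 to 53.2 (1C), with 12.7 in 2D, 23.1 in 2F, 27.5 in 1B and 38.4 in 2E. KO clones were at 59.0 (3H), 66.5 (3I), 46.0 (4J), 61.7 (4K) and 41.2 CPM (4L). KO clones were therefore high and close together, WT clones were spread widely, and only WT 1C reached into the KO range. The means were 27.3 ± 16.5 and 54.9 ± 10.8 CPM (SD), 2.01-fold higher in KO, with a log2 fold change of 1.01 ± 0.39 (SE; interval 0.13 to 1.88).

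This difference did not pass the threshold over all genes (edgeR adjusted p = 0.180, unadjusted p = 0.0276). Its adjusted p ran from 0.0789 (without WT 1C) to 0.328 (without KO 3I) when 1 clone was left out. The log2 fold change stayed positive in all 27 alternative settings, from 0.82 to 1.30. It was 1.14 in the comparison without the WT clones numbered 1 and 0.88 without those numbered 2. One setting called it, limma-voom with the clone number as a random block (1.21, adjusted p = 0.0132), but the estimated correlation within a number was negative there (-0.21) and 16.5% of all genes were called.

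Csf2rb, the beta chain shared by the receptors for GM-CSF, interleukin-3 and interleukin-5, was the steadiest member. WT clones ran from 191 CPM (2D) over a median of 230.2 to 279 (2F), and KO clones stood at 270.3 (3H), 232 (3I), 269.6 (4J), 239 (4K) and 289 (4L). The highest clone was 1.51 times the lowest. It differed by 0.16 ± 0.10 on the log2 scale (SE, interval -0.05 to 0.38; edgeR adjusted p = 0.386). The neighbouring gene Csf2rb2, which in mice encodes a close copy that serves interleukin-3 only, ran from 10.2 (2D) to 81.7 CPM (2E) in WT and from 33.8 to 53.4 CPM in KO clones (log2 fold change 0.21 ± 0.41; adjusted p = 0.824). Of the 50-base windows in the longest Csf2rb transcript, 18.4% also occur in another gene, chiefly Csf2rb2, so the assignment of reads there is uncertain.

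Csf2ra, the alpha chain that binds GM-CSF, was low in most clones. WT clones ran from 8.91 CPM (1B) over a median of 10.5 to 26.3 (2D), with 21.2 in 1A, and KO clones at 16.3 (3H), 10.8 (3I), 15.1 (4J), 6.54 (4K) and 14.4 CPM (4L). WT 2D and 1A stood above all KO clones, and the other 4 WT clones fell inside the KO range. Its log2 difference of -0.20 ± 0.34 (SE, edgeR adjusted p = 0.793) turned to 0.05 without WT 2D.

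Csf3r, the G-CSF receptor of the neutrophil lineage, ran in WT clones from 52.7 CPM (2E) over a median of 89.1 to 130 (2D). KO clones stood at 115 (3H), 87.1 (3I), 129 (4J), 102 (4K) and 138 CPM (4L). The means were 89.1 ± 26.0 and 114 ± 20.4 CPM (SD), and the log2 fold change was 0.36 ± 0.20 (SE; interval -0.09 to 0.81; edgeR adjusted p = 0.363). Of its transcript windows, 11.5% also occur in other genes of the annotation, among them AC105061.2.

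The interleukin-6 receptor pair was at low levels. Il6ra, the alpha chain, ran in WT clones from 5.41 CPM (2E) over a median of 8.28 to 19.1 (2D), with 14.9 in 1A, and was at 16.2, 4.20, 8.07, 2.68 and 12.8 CPM in KO clones 3H to 4L. High clones were found in both genotypes, WT 2D and 1A and KO 3H and 4L. KO minus WT came to -0.22 ± 0.50 on the log2 scale (SE, edgeR adjusted p = 0.850) and 0.05 without WT 2D.

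Il6st, the signalling chain gp130, was nearly silent in some clones and clearly present in others. It ran in WT clones from 0.364 CPM (1C) over a median of 0.924 to 5.96 (2D), with 3.31 in 2E, and was at 4.78, 0.170, 0.170, 2.92 and 0.753 CPM in KO clones 3H to 4L. The highest clone stood 35.1 times above the lowest, on 4 to 138 reads per library. WT 2D, KO 3H, WT 2E and KO 4K were the high clones, so the split ran across genotypes and across clone numbers. Its log2 fold change stood at -0.18 ± 0.99 (SE, interval -2.38 to 2.01; edgeR adjusted p = 0.942). It turned to 0.54 without WT 2D, and its sign changed in 9 of 27 alternative settings.

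Il1rl1, the receptor for IL-33, ran in WT clones from 39.1 CPM (2D) over a median of 68.3 to 134 (2E), with 105 in 1A. KO clones were at 45.0 (3H), 97.9 (3I), 51.5 (4J), 67.8 (4K) and 93.3 CPM (4L). The KO clones lay inside the wider WT range, WT 2E and 1A lying above every KO clone, and the genotypes differed by -0.11 ± 0.34 on the log2 scale (SE, interval -0.86 to 0.64; edgeR adjusted p = 0.897), which turned to 0.12 without WT 2E and 0.02 without KO 3H. Its co-receptor Il1rap was at 32.3 ± 18.1 CPM in WT and 38.3 ± 15.8 in KO clones (SD; log2 fold change 0.25 ± 0.37; adjusted p = 0.763), and was also highest in WT 2E (65.2).

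**Figure D2:**
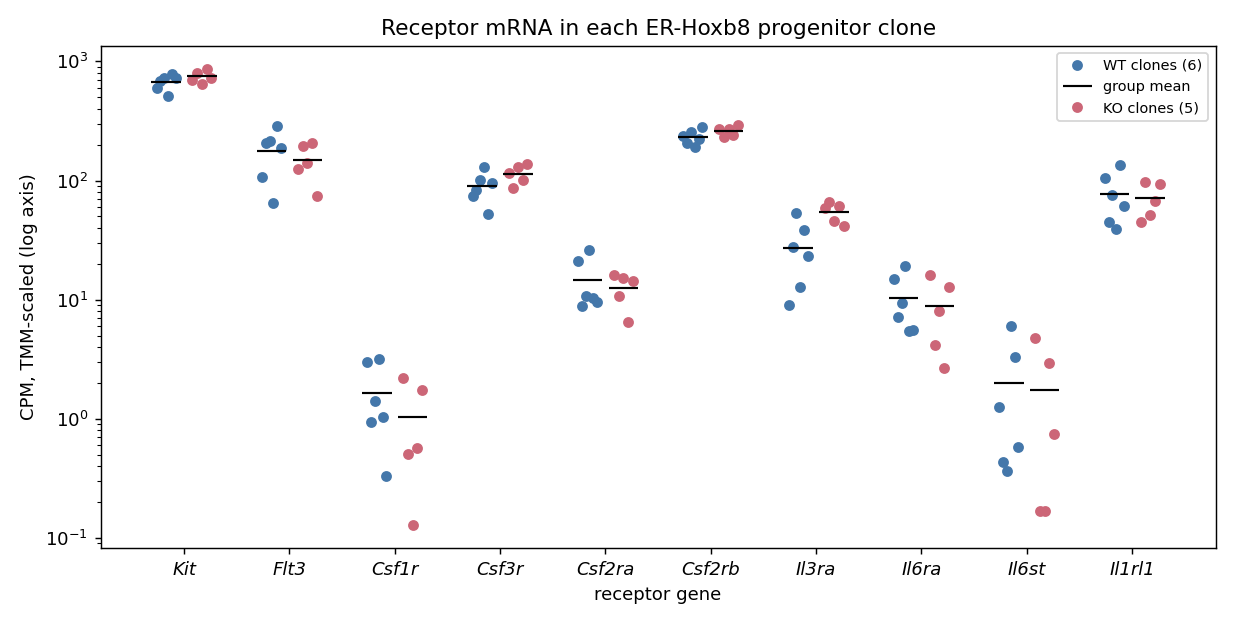
CPM of each receptor gene (log axis) in the 6 WT clones (blue) and 5 KO clones (red), 1 point per clone, with a black line at each group mean. The groups overlap for all 10 genes, Il3ra shows the clearest shift (27.3 against 54.9 CPM), and Kit and Csf2rb are the tightest.

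Levels of different genes were compared per length, as CPM per kb of annotated exon (GRCm38 models). Kit was highest at a median of 81.0 CPM per kb over the 11 clones and exceeded Csf2rb (32.8) in all 11, with no overlap of their ranges. Csf2rb, Flt3 (30.3) and Csf3r (27.7) followed with overlapping ranges, and Flt3 exceeded Csf3r in only 6 of 11 clones. Il3ra (13.9) exceeded Il1rl1 (9.84) in 7 of 11 clones, which does not set them apart.

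Csf2ra (3.76) lay above Il6ra (0.934) in all 11 clones, without overlap. Csf1r (0.179) and Il6st (0.0678) were last, and Csf1r was the higher of them in 8 of 11 clones. The beta chain Csf2rb was thus more abundant per kb than the alpha chains it serves. Its ratio to Csf2ra had a median of 8.83 in WT (2.87 to 11.5) and 7.93 in KO clones (6.56 to 14.4). Its ratio to Il3ra had a median of 4.00 in WT (1.96 to 10.7) and 1.87 in KO clones (1.42 to 2.87), from the same Il3ra values as above and with overlapping ranges.

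**Figure D3:**
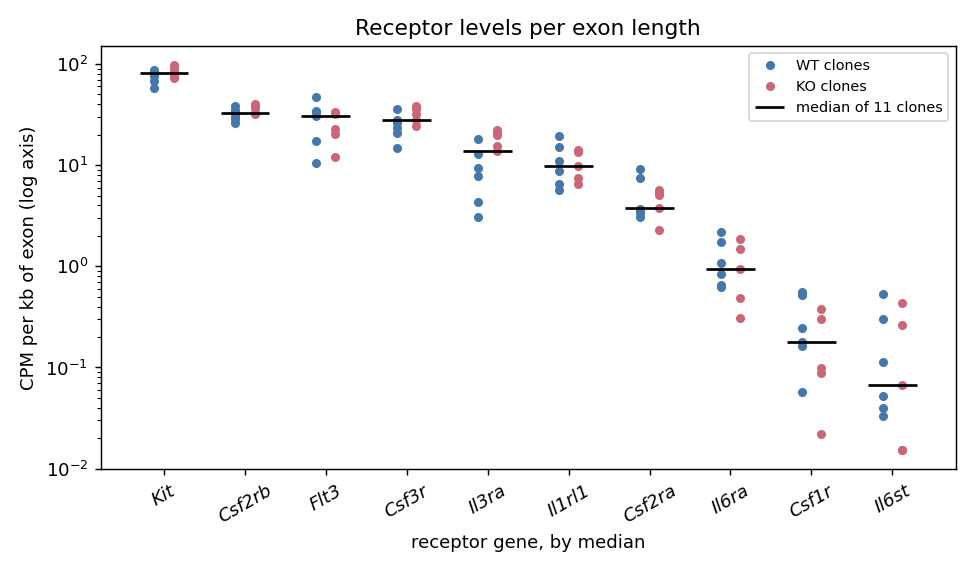
CPM per kb of exon (log axis) for the 10 receptor genes in order of their median over 11 clones (black lines), with WT clones in blue and KO clones in red. Kit lies alone at the top at 81.0, and Csf1r and Il6st lie under 1 in every clone.

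Most receptors varied widely from clone to clone of the same genotype. Measured as the SD of log2 CPM between clones of 1 genotype, where the median over all tested genes was 0.15, the members ranged from 0.17 (Csf2rb) and 0.20 (Kit) to 0.37 (Csf3r), 0.61 (Csf2ra), 0.61 (Il1rl1), 0.71 (Flt3), 0.74 (Il3ra), 0.90 (Il6ra), 1.24 (Csf1r) and 1.74 (Il6st). All 10 lay above that median. Set beside the 500 genes nearest in level, Flt3 was more variable than 99.2%, Il1rl1 than 98.0%, Il3ra than 97.2% and Csf3r than 95.2% of them, and the other 6 than 83.6% to 91.8%. The mean relative Poisson error per library was 1.75% for Flt3, 3.72% for Il3ra, 23.9% for Csf1r and 25.1% for Il6st. Beside it, the coefficient of variation in WT and KO clones was 44.9% and 36.7% for Flt3, 60.2% and 19.6% for Il3ra, 71.0% and 86.5% for Csf1r, and 113% and 116% for Il6st. In bulk RNA, fewer cells that express a gene and less RNA per cell cannot be told apart.

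**Figure D4:**
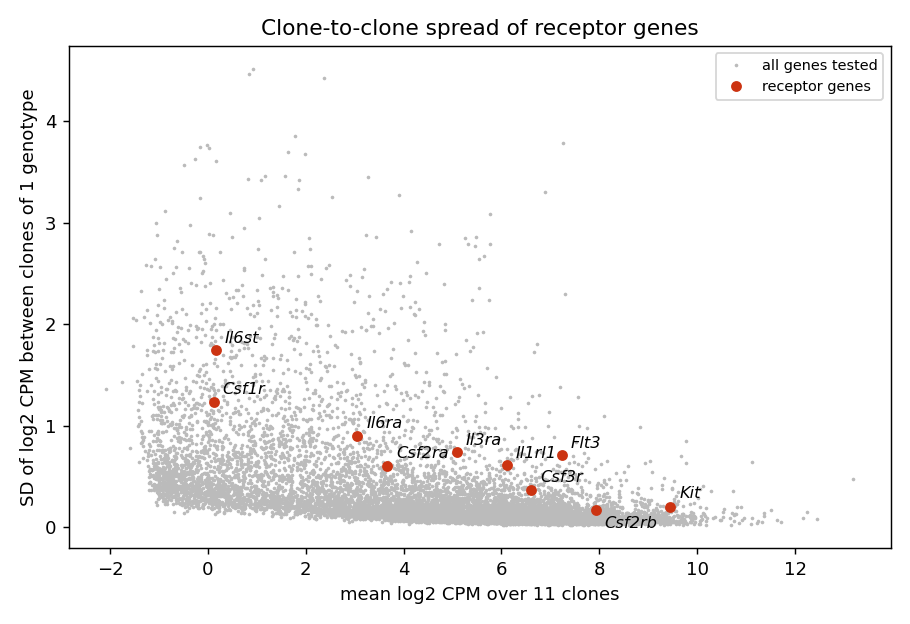
SD of log2 CPM between clones of 1 genotype against the mean log2 CPM over 11 clones, for all tested genes (grey points) and the 10 receptor genes (red, named). The receptor genes lie at or above the upper part of the grey cloud at their level, from 0.17 for Csf2rb to 1.74 for Il6st.

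No difference by the number in the clones' names was called. In a model of 4 means, 0 of 10 receptor genes passed the threshold between WT clones numbered 2 and 1 or between KO clones numbered 4 and 3 (edgeR adjusted p of 1.00 for each member). Over all genes the share called was 0% in both contrasts, with 3.14% and 1.48% of 12633 genes at an unadjusted p under 0.05. DESeq2 called 0.122% and 0.0319% of genes and limma-voom 0%, and neither called a member.

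The clones ranked differently by receptor. WT 2D was lowest of all 11 for Kit, Flt3, Csf2rb and Il1rl1 and highest for Csf2ra, Csf1r, Il6ra and Il6st. WT 1A went the same way for Kit and Il3ra (10th and 11th of 11) and for Csf2ra and Csf1r (2nd in each), but stood opposite to 2D for Il1rl1 (2nd against 11th) and Csf3r (10th against 2nd). At the other end, KO 4K was highest for Kit and lowest for Csf2ra and Il6ra, and WT 2E was highest for Flt3 and Il1rl1 and lowest for Csf3r. The likeness of 2 profiles was measured as the mean absolute difference of standardised log2 CPM over the 11 clones, in SD units, where lower is more alike. Csf2ra and Il6ra were the closest members (0.41), followed by Csf1r and Il6ra (0.51), Kit and Il3ra (0.56) and Kit and Flt3 (0.60). Kit against the sign-reversed Csf2ra (0.40) and Flt3 against the sign-reversed Csf2ra (0.46) were as close. All these profiles come from the same libraries and scaling factors.

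**Figure D5:**
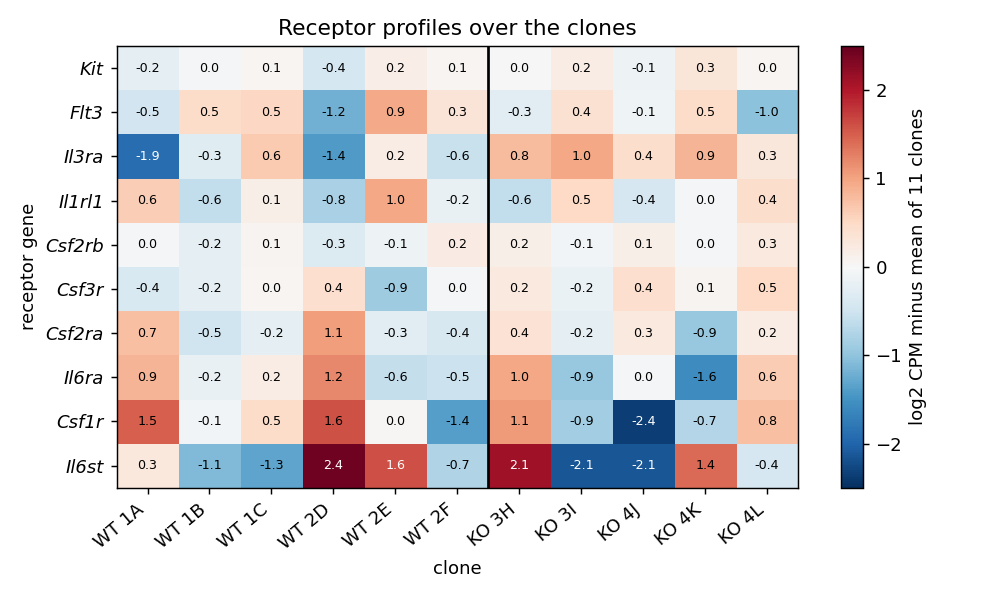
Log2 CPM of each receptor gene minus its mean over the 11 clones, printed in each cell and coloured from blue (lower) to red (higher), with WT clones left and KO clones right of the black line. WT 2D has blue cells for Kit, Flt3 and Il3ra above and red cells for Csf2ra, Il6ra, Csf1r and Il6st below, while KO 4K has the reverse for all of these but Il6st.

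Among 9297 or 9298 other genes whose mean over the 11 clones was at least 5 CPM, those with the most similar profiles were as follows. For Flt3 they were Siae (0.18), Rgs8 (0.19) and Il10rb (0.20), against a median of 1.12 over all genes. For Il3ra they were Gaa (0.18), Pld4 (0.20) and Grn (0.20), and for Csf2ra Wdr18 (0.14), Eif2b4 (0.15) and Pcid2 (0.17). For Il1rl1 the nearest gene was Ms4a2 (0.26), which encodes the beta chain of the high-affinity IgE receptor of mast cells and basophils, then Fancc (0.35) and Rfc5 (0.39). Csf3r was nearest to Pim1 (0.29), a kinase gene induced by STAT signalling, then Ice1 (0.30) and Gstp1 (0.36), and Il6ra to Rab7b, Tmem38b and Eloa (0.24 each). Csf1r (Zfp710 at 0.36, Ascc3 at 0.36, Adcy7 at 0.42) and Il6st (Hspbp1 at 0.33, Ndrg1 at 0.38, Pgm2 at 0.38) had more distant neighbours. The named genes were picked as the 3 nearest to each receptor, so the median is no yardstick for their closeness. Standardised profiles do not carry the size of the variation. Csf2ra ran from 6.54 to 26.3 CPM over the clones and its neighbour Wdr18 only from 126 to 159. Flt3 ran from 65.1 to 288 CPM and its neighbour Rgs8 from 15.6 to 97.2. Shared regulation was not tested. Kit and Csf2rb ranged over less than 1 log2 unit and were not compared in this way.

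Markers of mature and sister lineages also differed between clones, and how they track the receptors was not tested beyond the late neutrophil score. The summed level of 12 late neutrophil markers reached 1546 CPM in WT 2D, where Kit and Flt3 were lowest. The 5 remaining WT clones lay between 22.1 and 116 CPM, and the KO clones between 16.0 and 146. Only Ly6g of the 12 markers stayed under 1 CPM in all clones. The sum hides that the markers differed in direction. Of the 7 tested, 6 had a negative log2 fold change (median of the 7 -3.30), and 0 were called. Lcn2 had a positive one (0.72), at a mean of 24.7 CPM in WT and 40.6 in KO clones. The 5 primary granule genes summed to 9650 (2E) to 20136 CPM (2D) in WT and 8482 (4K) to 17448 CPM (4L) in KO clones. The 11 mast cell and basophil markers summed to 1644 (2D) to 4966 CPM (2E) in WT and 2818 (3H) to 5665 CPM (4K) in KO clones, led by the carboxypeptidase Cpa3, with Fcer1a, Tpsab1 and Mcpt4 under 1 CPM in all clones.

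Monocyte markers summed to 815 (2D) to 2304 CPM in WT, with 854 in 1A, so the sum was lowest in the clones where Csf1r was highest, and to 1143 to 1984 CPM in KO clones, but Klf4 and Ms4a7 were under 1 CPM in all clones. Of the GMP markers, Mpo, Ctsg and Cd34 were abundant in every clone, but Elane, the neutrophil elastase gene of the same granules, ran from 23.3 to 825 CPM (2D) in WT and from 2.26 (4K) to 147 CPM in KO clones. Erythroid and megakaryocyte markers summed to 146 to 268 CPM in WT and 146 to 263 in KO clones, eosinophil markers to 67.6 to 263 and 71.7 to 131 CPM, lymphoid markers to 34.0 to 58.8 and 9.29 to 36.1 CPM, and dendritic cell markers to 1.81 to 6.72 and 4.33 to 13.7 CPM. Early progenitor markers summed to 1557 to 2656 and 1632 to 2845 CPM. Of the markers tested, only Cd79b, a B-cell receptor component, was called, where 5.05% of all tested genes were. Markers too scarce to be tested are not covered, such as 4 of 10 lymphoid and 7 of 8 dendritic cell markers. Cd79b was lower in KO clones (log2 fold change -3.80 ± 0.73, edgeR adjusted p = 0.0170, and 0.0562 without KO 3I). The part of the other markers in the receptor values was not tested.

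The other genes of these pathways are counted below from lists, beside the 5.05% of all tested genes that were called (2.76% higher, 2.29% lower). At these list sizes that share is 0 or 1 gene in most lists, so the counts say nothing particular about them. Of 9 partner chains and paralogs, 6 were tested and 0 called, and Csf2rb2 was the most abundant. Of 25 other cytokine and growth factor receptors, 23 were tested and 0 called (median log2 fold change -0.08), the most abundant being the interferon-gamma receptor chain Ifngr1 (213 ± 42.6 CPM in WT, 194 ± 47.4 in KO, SD; log2 fold change -0.13 ± 0.17; edgeR adjusted p = 0.723). Of 10 Janus kinases and STATs, all tested, 0 were called (median 0.03), and Jak1 was at 244 ± 26.1 and 255 ± 27.5 CPM (SD; log2 fold change 0.07 ± 0.09; adjusted p = 0.717). Of 16 transcription factors known to act on myeloid receptor genes, 15 were tested and 0 called (median -0.03), with Myb at 1072 ± 57.9 and 1077 ± 54.5 CPM (SD; log2 fold change 0.01 ± 0.05; adjusted p = 0.961).

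Downstream of the receptors, against the same 5.05% of all genes, 1 of 17 tested adaptors and kinases fell and none rose (median -0.01), 1 of 18 inhibitors rose and 1 fell (median 0.09), and 1 of 17 common readouts of STAT or ERK signalling rose (median 0.03). Mapk3, which encodes the kinase ERK1, fell from 85.9 ± 7.15 to 65.9 ± 1.90 CPM (SD), or by 0.38 ± 0.06 (SE) on the log2 scale (edgeR adjusted p = 0.00525). It kept its call without any 1 clone. Ptpn6, which encodes SHP-1, a phosphatase that dampens KIT and cytokine receptor signals, fell from 233 ± 20.1 to 188 ± 16.9 CPM (SD; -0.31 ± 0.07; adjusted p = 0.0355). Leaving out WT 2D, WT 2E or KO 4J kept the call, and leaving out each of the other 8 clones lost it (highest adjusted p = 0.0961). Mapk3 lost its call without the clones numbered 1, 3 or 4 (adjusted p = 0.0824, 0.0705 and 0.174). Socs4, of the suppressor of cytokine signalling family, rose by a log2 fold change of 0.17 ± 0.03 (adjusted p = 0.0192; 0.0515 and 0.0521 without KO 3H or 4J). Bcl6, a transcriptional repressor repressed by STAT5, rose from 3.20 ± 1.08 to 6.46 ± 0.66 CPM (SD; 1.01 ± 0.24; adjusted p = 0.0390) and kept its call only on leaving out WT 1A, 2D or 2E, of the single clones (highest adjusted p = 0.0937).

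Of 10 ligand genes, 9 were matched and only Csf1 and Il6 were tested. Csf1 was at 12.3 ± 4.30 CPM in WT and 16.7 ± 2.86 in KO clones (SD; log2 fold change 0.45 ± 0.25; edgeR adjusted p = 0.342), although its receptor Csf1r was scarce. Kitl, the gene of SCF, was at or under 0.0736 CPM in all clones, and Il3, Il5 and Il34 had 0 counts in all 11 libraries, which allows up to 3 counts in each.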

How the data were processed

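Per the labels' protocols, polyA RNA of each clone went into a strand-specific library. The authors deposited raw read counts for Ensembl genes, 1 library per clone. Per the submitters' processing notes, STAR, HTSeq, edgeR and mm9 were used (no version given). An annotation release was not found in the sources used here. The deposited files carry a mark that strand was ignored. Gene counts per library ranged from 19778119 to 27431544 (WT 24969200 ± 2150520, KO 21643200 ± 1895630, SD). The counter's own lines, which name no gene, entered neither library sizes nor tests (outside genes 6.07% in WT and 6.59% in KO, ambiguous reads 2.85% and 2.79%). Libraries of the same genotype all differed by more than sampling noise (chi-square per gene at least 15.2). Symbols were matched by ID for 32860 of 37583 genes. GRCm38 (GENCODE M21, RefSeq) gave only names, exon lengths, overlaps and promoter sequences.

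edgeR's robust quasi-likelihood test (TMM, filterByExpr, Benjamini-Hochberg over all tested genes, called at an adjusted p under 0.05) compared 5 KO with 6 WT clones, and the clone numbers in a model of 4 means. Log2 CPM used a prior count of 2. The SE was taken as |log2 fold change| divided by the root of F, and 95% intervals use the fit's degrees of freedom. Alternatives were RLE and upper-quartile scaling, no filter, a filter of 1 CPM in 5 libraries, DESeq2, limma-voom, a non-robust fit, leaving out each clone or clone number, the number as a random block, sums or means per number, and library sizes computed without the top 10 genes. A covariate for late neutrophil genes was added after the data were seen. The scripts were tested on simulated data. The members and lists were chosen with earlier results of these data known. Named genes are the members, Csf2rb2, Il1rap, Taz, up to 4 called genes per list or its most abundant gene, and the 3 most similar genes per member ranging over at least 1 log2 unit. Cxcr2, Il6, Kitl, Il3, Il5, Il34, Ctsg, Elane, Lcn2, Ly6g and the other markers under 1 CPM were chosen after their values were seen. Software was edgeR 4.0.16, DESeq2 1.42.0 and limma 3.58.1 in R 4.3.3, and pandas 2.3.3, numpy 2.4.6 and matplotlib 3.10.9 in Python 3.11.15.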

Additional observations from a re-analysis of the deposited data

How the results depend on the processing

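The count of called receptor genes was 0 in 25 of 27 alternative settings for KO against WT. It was 1 with the clone number as a random block (Il3ra) and 1 with the late neutrophil covariate (Flt3). The share of all genes called ran from 0.256% to 16.5%. The count of members was 0 in every setting run of both clone-number contrasts. Kit, Flt3, Csf1r, Csf3r, Csf2rb and Il3ra kept the sign of their fold change in all 27.

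Signs of uncalled genes near 0 changed as follows, in log2 fold change. Leaving out 1 clone gave -0.31 to 0.052 for Csf2ra, -0.56 to 0.048 for Il6ra, -0.99 to 0.54 for Il6st, -0.25 to 0.12 for Il1rl1, -0.029 to 0.58 for Il1rap and -0.016 to 0.027 for Myb. Without clone number 1, Csf2rb2 was at -0.015 and Myb at -0.015. Il6st was at 1.33 without clone number 2, 0.32 without number 4 and 0.23 with number means. The late neutrophil covariate gave values of 0.10 for Csf2ra, 0.074 for Il6ra, 0.12 for Il6st, -0.0041 for Jak1 and -0.036 for Myb, which was at -0.00019 with no filter. The cause was not tested.

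Mapk3, Socs4, Ptpn6, Bcl6 and Cd79b kept their direction in all 27 settings and their calls in 24, 18, 14, 12 and 21. The labels pair no clones across genotypes. Csf1r and Il6st rest on 3 to 138 reads per library, so their values are the least precise. Sequence shared with other genes makes Csf1r, Csf2rb, Csf2rb2 and Csf3r uncertain.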

Other observations

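Cxcr2, a chemokine receptor of maturing neutrophils that is not among the 10 genes, was chosen after its values were seen. It was at 8.22 ± 3.72 CPM in WT and 2.68 ± 1.57 in KO clones (SD; log2 fold change -1.61 ± 0.49; edgeR adjusted p = 0.0893). Of 27 alternatives, 4 called it, DESeq2 among them (adjusted p = 0.0111, where 10.6% of all genes were called). Cxcr2 is itself among the 7 genes of the late neutrophil score, so the alternative with that covariate adjusts it partly for itself.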
